A study of Mus musculus with 8 samples.

Results

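AP-1 is a dimeric transcription factor assembled from Fos and Jun proteins, and 8 of the genes that encode its subunits were followed here in mouse bone marrow mesenchymal stem cells (MSCs) with and without a conditional knockout of Mettl3. The members were taken by gene symbol from the expression table: Fos, Fosb, Fosl1 and Fosl2 of the Fos family, Jun, Junb and Jund of the Jun family, and Atf3, a relative that can pair with Jun proteins. All 8 were found among the 47643 named genes of the table and all 8 were among the 15327 genes with enough counts to be tested. RNA-seq had been run on 2 libraries labelled wild type (control) and 2 libraries of the conditional knockout. The knockout carries floxed Mettl3 alleles and a Prx1-Cre transgene (Prx1-Cre;Mettl3fl/fl), and by the study's methods the controls are Mettl3fl/fl animals without Cre. Mettl3 is the catalytic subunit of the enzyme that places N6-methyladenosine (m6A) on mRNA. Prx1-driven Cre acts in limb bud mesenchyme and its descendants, and blood lineages lie outside its reach. The mice were C57BL/6 by the labels and C57BL6/J by the study's methods, and their age, and whether animals were pooled, are not given in the sources used here. The cells of every group had been flushed from tibiae and femurs, grown in α-MEM with serum and kept for 2 days in osteogenic medium. Its additions were dexamethasone at 100 nM, β-glycerophosphate at 5 mM and ascorbic acid at 50 μg/ml. A separate m6A immunoprecipitation experiment (MeRIP-Seq) on wild type MSCs, with 2 immunoprecipitated and 2 input libraries, gave a single list of 10160 m6A peaks.

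Fos proteins cannot pair with each other and bind DNA through a basic leucine zipper (bZIP) shared with a Jun partner, whereas Jun proteins can also pair among themselves. Fos, Fosb, Jun, Junb and Atf3 are classic immediate early genes, switched on within minutes by kinase signalling, and their mRNAs are short-lived. In the skeleton, Fosl1, Fosl2 and Junb are known as regulators of bone formation, and collagenases such as Mmp13 are textbook AP-1 targets.

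The m6A peaks that lay on the members' transcripts are shown first, each by 30 bases of the mm9 genome on the transcript strand with a GGAC in capitals. GGAC is the core of the sequence motif that the methyltransferase prefers, and the copy closest to the summit is shown, the summit being the position of highest coverage in a peak. The list held 10 summits on 7 of the 8 members, and 9 of the 10 peaks held GGAC, with 46 copies in all. These peaks were 200 to 1387 bp long, against a median of 301 bp over the list, and longer peaks have room for more copies. No share over all peaks was computed for GGAC anywhere in a peak.
Fos, coding sequence (chr12:86817128-86817157, + strand): ctgtgccagatgtGGACctgtccggttcct
Fosb, 5′UTR (chr7:19894992-19895021, - strand): accgacagagcctGGACtttcaggaggtac
Fosl2, 3′UTR (chr5:32455612-32455641, + strand): acacccttcccagGGACcagcacctttaag
Jun, 5′UTR (chr4:94718262-94718291, - strand): gccgctgttgctgGGACtggtctgcgggct
Jun, 3′UTR (chr4:94716816-94716845, - strand): gggtacacaagatGGACtgggttgcgacct
Junb, coding sequence (chr8:87501994-87502023, - strand): gcccacgcctccgGGACagtacttttaccc
Junb, at the stop codon (chr8:87501292-87501321, - strand): gctaggggtcaagGGACacgccttctgaga
Jund, 3′UTR (chr8:73223993-73224022, + strand): ggggcgcatgcgcGGACtagctgcggtggg
Atf3, 3′UTR (chr1:192994635-192994664, - strand): gccaacagaggatGGACgacacctttccct
The peak in the 3′UTR of Fosb held no GGAC, and Fosl1 had no summit. A GGAC is a description of the letters under a peak and does not place a methylated base.

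The libraries held 23978099 to 34106693 estimated counts, and CPM (counts scaled to library size) below use TMM factors. The knockout libraries were far closer to each other than the controls were. The chi-square of the knockout counts was 1.82 times its expectation under counting noise over 14742 genes (biological coefficient of variation 1.90%). That of the control counts was 32.6 times its expectation over 15223 genes (12.3%). The labels do not say whether libraries came from separate animals or cultures, so p-values measure only the spread between these libraries, which may be technical. Mettl3 itself had 17.6 and 16.9 CPM in the control-labelled libraries, against 17.5 and 16.3 CPM under the knockout label (log2 fold change -0.03, SE 0.0929, edgeR adjusted p = 0.824). Gene-level counts also cover the exons that are not removed, so the labels could not be checked on Mettl3. Of mesenchymal stromal markers, 4 of 9 rose and 4 fell, with the chemokine Cxcl12 at 347 and 250 against 189 and 191 CPM (lower) and Prrx1, the gene whose promoter drives the Cre, at 146 and 134 against 288 and 289 CPM (higher). The defining marker Lepr, looked up after its values were seen, stayed at 0.60 to 1.24 CPM. Macrophage markers summed to 17700 and 22400 CPM in controls and to 23400 and 23500 CPM in knockouts (2 of 8 called, both higher, median log2 fold change 0.10), with Lyz2 alone at 10984 to 15934 CPM. Chondrocyte markers summed to 3570 and 3610 CPM in controls and to 84.8 and 84.2 CPM in knockouts (5 of 6 lower, with Col2a1 and Comp the most abundant), osteoblast markers to 2200 and 2300 against 1400 and 1430 (6 of 6 tested lower), and adipocyte markers to 130 and 147 against 223 and 226 (4 of 6 higher, 1 lower). Endothelial markers summed to 9.66 to 26.4 CPM (3 of 4 tested higher), neutrophil markers to 0.91 to 4.28 CPM (1 of 2 tested lower, with S100a9, Mpo and Ngp at 0 counts in every library), and erythroid and lymphocyte markers stayed at or under 0.619 CPM, with none tested. Xist had 527 to 814 CPM in all 4 libraries, and neither of the 2 tested sex-linked genes passed the test. The part of these cell type differences in the results on AP-1 was not tested.

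Of the members, 5 fell, Jun and Jund rose and Atf3 did not pass edgeR's test. Fosb, Fosl1, Junb, Fos and Fosl2 were 2.67-fold to 9.29-fold lower in the knockout-labelled libraries, and the increases of Jun and Jund were 1.37-fold and 1.26-fold. In all, 7 of 8 members passed edgeR's quasi-likelihood test at an adjusted p under 0.05, against 30.5% of all genes tested, of which 16.8% were lower and 13.7% higher. A fall of at least 2-fold was called for 5 of the 8 members and for 6.41% of all genes, and no member rose at least 2-fold, against 2.79% of all genes. The CPM of the groups did not overlap for any of the 8 members, a pattern that 68.9% of all genes shared. The median log2 fold change of the members was -1.68, and that of all genes was -0.0038. In such bulk cultures, fewer cells of a type and less RNA per cell cannot be told apart.

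**Figure D1:**
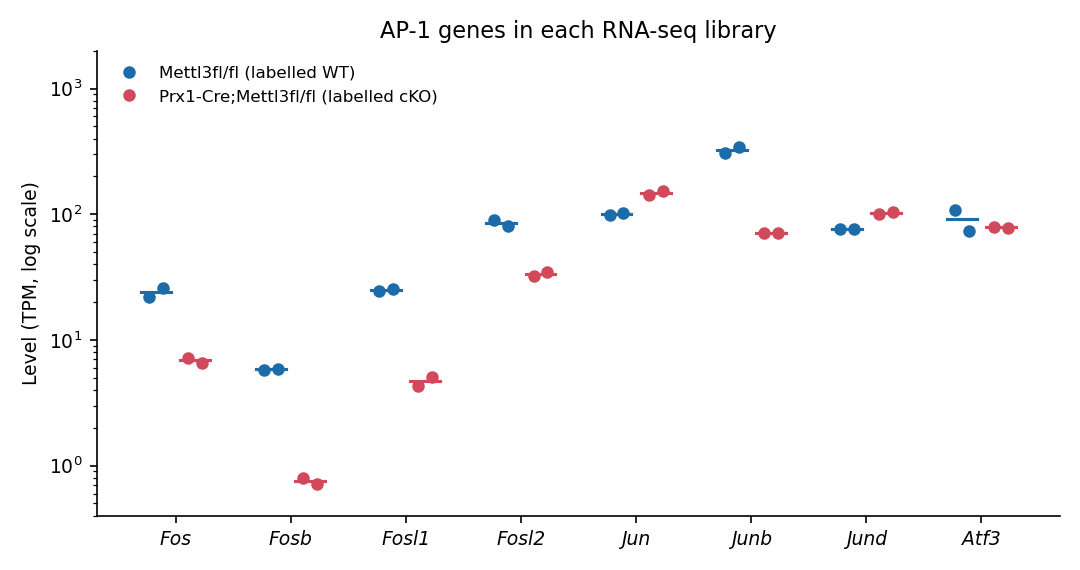
TPM (length-scaled transcript abundance, log axis) of the 8 AP-1 members, with 1 point for each of the 2 control and 2 knockout libraries. The knockout points of Fos, Fosb, Fosl1, Fosl2 and Junb lie below both control points, those of Jun and Jund above, and those of Atf3, at 79.55 and 78.36 TPM, between the controls at 73.77 and 108.47 TPM.

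Of the Fos family, Fosb changed most. Fosb encodes a Fos protein with a strong transactivation domain, and a splice variant of it, ΔFosB, is known for driving bone formation when overproduced in mice. It had 502 and 446 counts (14.85 and 15.78 CPM) in the controls and 42 and 50 counts (1.733 and 1.569 CPM) in the knockouts. Each control was thus above each knockout by far more than either pair differed, and the fitted log2 fold change was -3.22 (SE 0.141, 95% CI -3.56 to -2.88, edgeR adjusted p = 3.57e-05). Among all genes tested it ranked 230th by size of fall. Fosb was also the member with the lowest level, at 5.81 and 5.91 TPM in the controls and 0.80 and 0.72 TPM in the knockouts. The gene lies at chr7:19302696-19310051 on the minus strand of GRCm38.

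Fosl1 encodes Fra-1, a Fos protein without a strong transactivation domain that is needed for bone matrix production. Its CPM were 27.15 and 28.83 in the controls and 4.54 and 5.271 in the knockouts, a log2 fold change of -2.50 (SE 0.114, adjusted p = 4.09e-05) or a 5.67-fold fall. Counts fell from 918 and 815 to 110 and 168. On the per-length scale it was close to Fos in the controls, with 24.61 and 25.35 TPM against 21.9 and 26.01 TPM for Fos, so these neighbours could not be ordered. In the knockouts Fosl1, at 4.34 and 5.05 TPM, lay below Fos, at 7.13 and 6.6 TPM. Fosl1 lies at chr19:5447703-5455945 on the plus strand of GRCm38.

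Fos encodes the founding member of the family, the cellular homologue of a viral oncogene, and mice without it lack osteoclasts. It had 1009 and 946 counts in the controls and 206 and 257 in the knockouts, or 29.85 and 33.47 against 8.502 and 8.064 CPM. The knockout values sat close together and well under the controls (log2 fold change -1.93, SE 0.103, adjusted p = 7.49e-05, 3.82-fold). Fos lies at chr12:85473890-85477273 on the plus strand.

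Fosl2 encodes Fra-2 and was the most abundant Fos-family transcript in all 4 libraries. It had 89.96 and 80.96 TPM in the controls and 32.47 and 35.04 TPM in the knockouts. In CPM these were 424.1 and 389.1 against 147 and 157, and the log2 fold change was -1.42 (SE 0.072, adjusted p = 6.22e-05). This 2.67-fold fall was the smallest of the 4 Fos-family members. Because the other 3 fell further, Fosl2 accounted for 63.2% and 58.6% of Fos-family TPM in the controls and for 72.6% and 73.9% in the knockouts. The gene lies at chr5:32135801-32157842 on the plus strand.

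**Figure D2:**
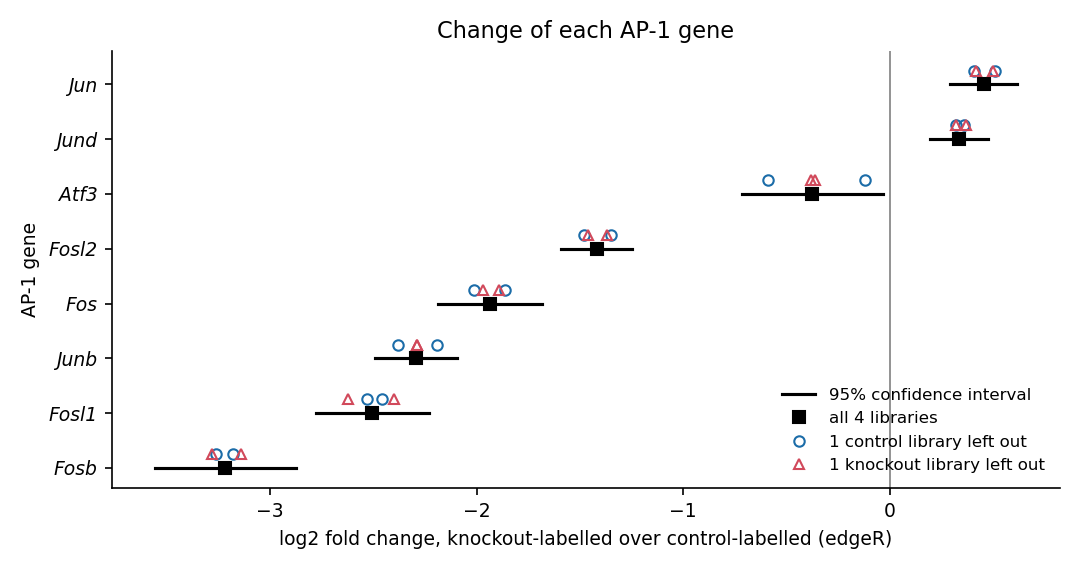
Log2 fold change of each AP-1 member, knockout against control, with its 95% confidence interval from edgeR (large points and bars) and the estimate with each of the 4 libraries left out (small points). Leaving out a library moved Fosb between -3.28 and -3.14 and Jun between 0.41 and 0.51, and Atf3 had the widest span, from -0.59 to -0.12.

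The Jun family split in direction. Junb, a partner of Fos proteins that is itself a weak activator on many promoters, fell 4.9-fold. Its CPM were 373.1 and 426.8 in the controls and 81.8 and 81.55 in the knockouts (log2 fold change -2.29, SE 0.082, 95% CI -2.49 to -2.09, adjusted p = 1.59e-05). With 309.29 and 343.78 TPM it was the most abundant of the 8 members in both controls, above 97.2% of the genes tested, and with 71.54 and 71.52 TPM it was below Jun, Jund and Atf3 in both knockouts. Junb is a gene without introns at chr8:84976909-84978748 on the minus strand.

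Jun, the strongest activator of the family and the classic partner of Fos, rose by a much smaller step. It had 220.6 and 237.1 CPM in the controls and 305 and 322.2 CPM in the knockouts, with a log2 fold change of 0.45 (SE 0.0665, 95% CI 0.29 to 0.61, adjusted p = 0.00398). Jund, which is known for steady expression and for slowing growth, had 152.4 and 156.7 CPM in the controls and 191.8 and 198.5 CPM in the knockouts (log2 fold change 0.34, SE 0.0585, 95% CI 0.20 to 0.48, adjusted p = 0.00766). Both knockouts exceeded both controls for each gene, but these calls were less stable than the falls. Without knockout replicate 2 the adjusted p of Jun was 0.0769 and that of Jund 0.165, and without knockout replicate 1 that of Jund was 0.108. Both genes are intronless, Jun at chr4:95049034-95052222 on the minus strand and Jund at chr8:70697739-70700616 on the plus strand.

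Antisense genes overlap both, and whether counting used strand is not given in the sources used here. Junos, over 689 bp of Jun, had 0.377 to 0.444 CPM. Gm11175, over 543 bp of Jund, had 1.24 and 5.80 CPM in the controls and 7.47 and 8.97 CPM in the knockouts (log2 fold change 1.26, SE 0.568, adjusted p = 0.144). Even its highest value was far under the lowest value of Jund, 152.4 CPM. That compares levels only, and the part of Gm11175 in the 1.26-fold rise of Jund was not tested. The deposited counts of Jun and Jund held fractions, so they are estimates rather than whole reads.

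Atf3 encodes a stress-induced bZIP protein that represses as a homodimer. Its controls differed from each other, at 127 and 92.37 CPM, whereas its knockouts, at 84.24 and 85.25 CPM, were alike and below both. The log2 fold change was -0.37 (SE 0.141, 95% CI -0.71 to -0.03, adjusted p = 0.0935). On the TPM scale the groups overlapped. The call on Atf3 depended on the settings, and it was lower at the same log2 fold change with DESeq2 (adjusted p = 0.0423) and without the filter on low counts (adjusted p = 3.5e-05). Leaving out control replicate 1 gave -0.12 with an adjusted p of 0.0137, and leaving out control replicate 2 gave -0.59 with an adjusted p of 1.45e-41, values that rest on a spread estimated from the near-identical knockouts alone. Atf3 lies at chr1:191170296-191218039 on the minus strand, and the small RNA gene Gm24748 that overlaps 108 bp of it was listed at 0 counts.

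These changes altered the mix of AP-1 transcripts. Summed over the Fos family, TPM fell from 142.28 and 138.23 in the controls to 44.74 and 47.41 in the knockouts (140 ± 2.86 against 46.1 ± 1.89, SD, n = 2 each). The Jun family summed to 483.15 and 523.26 TPM in the controls and to 315.88 and 328.42 TPM in the knockouts (503 ± 28.4 against 322 ± 8.87). Fos-family transcripts therefore made up 19.4% and 18.8% of all AP-1 TPM in the controls and 10.2% and 10.4% in the knockouts. Within the Jun family the order turned over. Junb supplied 64.0% and 65.7% of Jun-family TPM in the controls and 22.6% and 21.8% in the knockouts, while Jun went from 20.3% and 19.7% to 45.4% and 46.3%, and Jund from 15.7% and 14.6% to 32.0% and 31.9%. The ratio of Junb to Jun was 3.16 and 3.33 in the controls and 0.499 and 0.470 in the knockouts. None of these shares overlapped between groups, but at this size the smallest p of an exact two-sided permutation test is 0.333.

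**Figure D3:**
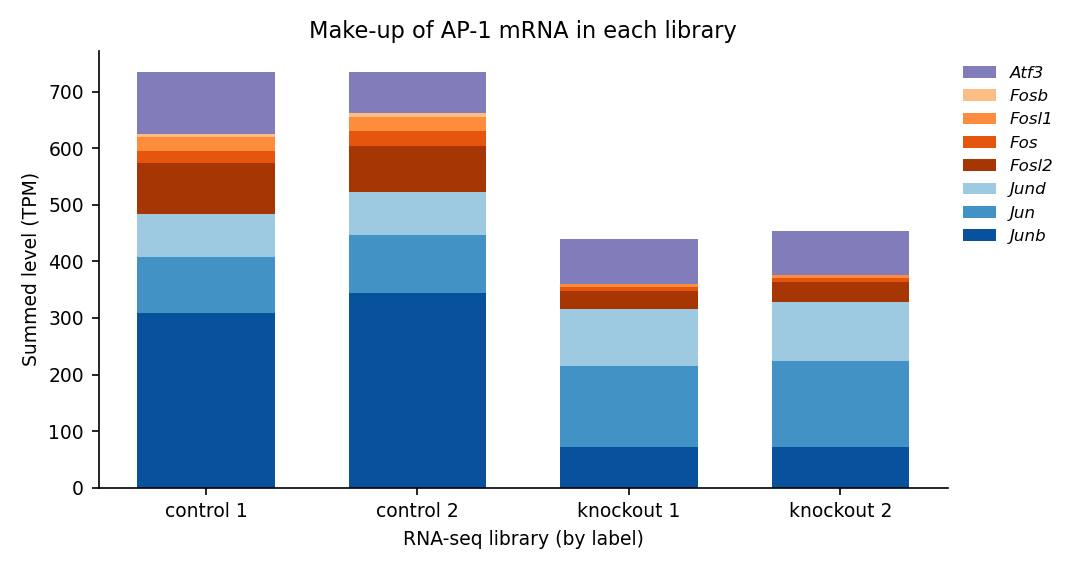
Stacked TPM of the 8 AP-1 members in each library, on an axis that starts at 0. The totals are 733.9 and 735.26 TPM in the controls and 440.17 and 454.19 TPM in the knockouts, and the Junb segment shrinks from over 300 TPM to about 71.5 TPM.

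The order of levels differed accordingly. In the controls, mean TPM ran from Junb (327) through Jun (101), Atf3 (91.1), Fosl2 (85.5), Jund (76.0), Fosl1 (25) and Fos (24) to Fosb (5.86). The range of Atf3 overlapped those of Jun, Fosl2 and Jund, and that of Fosl1 lay within that of Fos, so these neighbours did not differ beyond their spread. In the knockouts the order was Jun (148), Jund (103), Atf3 (79.0), Junb (71.5), Fosl2 (33.8), Fos (6.86), Fosl1 (4.70) and Fosb (0.76), and no neighbours overlapped.

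Other bZIP genes share the DNA-binding fold and in part the partners of AP-1. Of 25 listed relatives 24 were tested, and 6 fell, 2 rose and 16 did not pass, a share of calls near the 30.5% of all genes, with a median log2 fold change of -0.04. Among the listed relatives, the largest change was in Crem, a cAMP-responsive factor whose short isoform is inducible. Crem went from 34.8 and 48.3 CPM to 13.2 and 13.9 CPM (log2 fold change -1.61, SE 0.163, adjusted p = 0.000963). Maff, a small Maf protein, followed with 33.1 and 37.1 against 15.8 and 14.5 CPM (-1.21, adjusted p = 0.000386), and then Creb3l2, a membrane-bound factor of the secretory pathway (-0.50, adjusted p = 0.00356). The most abundant relatives were Maf, with 518.6 to 777.06 CPM and an adjusted p of 0.25, and Nfe2l1 (-0.20, adjusted p = 0.0523). The list does not hold every bZIP gene. Nfil3, a bZIP gene left off it, fell further than Crem (log2 fold change -2.31, edgeR adjusted p = 5.89e-05). The count of calls depended on the libraries, with 21 and 16 relatives called without control replicate 1 or 2 and 2 and 3 without knockout replicate 1 or 2.

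Upstream of AP-1, mitogen-activated protein kinases and the SRF complex convert signals into transcription of Fos and Jun. Of 20 listed kinases and SRF factors, 2 rose, none fell and 18 did not pass in edgeR, with a median of 0.07. Of all genes tested, 13.7% rose and 16.8% fell. At an unadjusted p under 0.05, 2 were higher and 2 lower, and DESeq2 called 2 higher and 0 lower. The 2 called genes were Elk3, a ternary complex factor that pairs with SRF (45.8 and 52.9 against 67.0 and 69.0 CPM, log2 fold change 0.46, adjusted p = 0.00918), and Mapk14, the p38α kinase (0.30, adjusted p = 0.0108). The most abundant was Prkacb, a catalytic subunit of protein kinase A (0.07, adjusted p = 0.614). The number called was 10 when either control was left out, with 4 and then 2 of them lower, and 0 when either knockout was left out.

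Genes that switch AP-1 signalling off again, by removing phosphate from the kinases or by degrading the mRNAs or proteins, included several that fell. Of 12, 5 fell, 2 rose and 5 did not pass, with a median of -0.12. The 12 included Elavl1, whose protein is known for stabilizing mRNAs rather than degrading them. Elavl1, named after its values were seen, did not pass (-0.10, adjusted p = 0.403). Of all genes tested, 16.8% fell and 13.7% rose. Dusp1, a phosphatase of p38 and JNK and itself an immediate early gene, went from 254.32 and 313.52 CPM to 89.56 and 95.195 CPM (log2 fold change -1.62, SE 0.107, adjusted p = 0.000178). Dusp5, a nuclear phosphatase of mitogen-activated protein kinases, had a log2 fold change of -1.26 (adjusted p = 0.005) and Dusp2, a phosphatase of the same family, one of -1.24 (adjusted p = 0.0329). Dusp2 rested on few counts, 85 and 75 in the controls and 35 and 25 in the knockouts. The 2 that rose, named after their values were seen, were Dusp6 (0.51, adjusted p = 0.0125) and Fbxw7 (0.42, adjusted p = 0.0129). Zfp36l2, an mRNA decay factor and the most abundant of the list, did not pass (0.10, adjusted p = 0.293). The calls numbered 4 without knockout replicate 1 and 3 without knockout replicate 2.

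Most genes of a list of known AP-1 targets fell. Of 20, 19 were tested, and 14 fell, 2 rose and 3 did not pass, with a median of -1.68. Of all genes tested, 16.8% fell and 13.7% rose. The list was chosen with earlier results of these data known, so its count of falls is not an independent test. Mmp13, the collagenase of bone and cartilage, went from 620.18 and 659.54 CPM to 23.69 and 25.383 CPM (log2 fold change -4.70, SE 0.0779, adjusted p = 1.61e-06). Mmp3, the matrix protease stromelysin, went from 10.0 and 13.2 CPM to 0.537 and 0.628 CPM (-4.29, adjusted p = 8.88e-05). Ptgs2, the inducible prostaglandin synthase COX-2, went from 108.94 and 148.69 CPM to 6.60 and 6.90 CPM (-4.25, adjusted p = 2.51e-05). The most abundant target, Spp1, which encodes osteopontin, had 5862.9 and 14630 CPM in the controls and 5693.9 and 5625.8 CPM in the knockouts and did not pass (adjusted p = 0.131), while Hmox1, heme oxygenase, fell by 0.43 (adjusted p = 0.00346). The 2 that rose, named after their values were seen, were Figf (1.46, adjusted p = 0.000148), which encodes the growth factor VEGF-D, and Tnc (0.80, adjusted p = 0.00311), which encodes tenascin-C. Chondrocyte and osteoblast markers also fell, as given above, and their part in the falls of the targets was not tested.

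Heat shock genes, which like immediate early genes respond to handling of cells, had 3 of 8 members lower and 1 higher, with a median of -0.32 and sums of 2360 and 2620 CPM in the controls and 2320 and 2350 CPM in the knockouts. Of all genes tested, 16.8% were lower and 13.7% higher. Hspa8, the constitutive chaperone and the most abundant, made up most of the sums, at 1493.8 to 1597.2 CPM. It did not pass (0.03, adjusted p = 0.711), and Hsp90aa1, an inducible form of HSP90, was lower (-0.27, adjusted p = 0.0229). The other falls were larger, with the co-chaperones Hsph1 at -1.26 (adjusted p = 4.36e-05) and Bag3 at -0.97 (adjusted p = 0.000214), and the small heat shock protein gene Hspb1 rose (0.65, adjusted p = 0.00256). These 3 were named after their values were seen, as were Hspa1a and Hspa1b, which did not pass (adjusted p = 0.486 and 0.265). Hspa1a had 8.87 and 20.5 CPM in the controls and 10.8 and 11.8 CPM in the knockouts. Hspa1b had 50.3 and 129.3 CPM in the controls and 56.4 and 59.4 CPM in the knockouts. The part of handling in the falls of the AP-1 members was not tested.

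**Figure D4:**
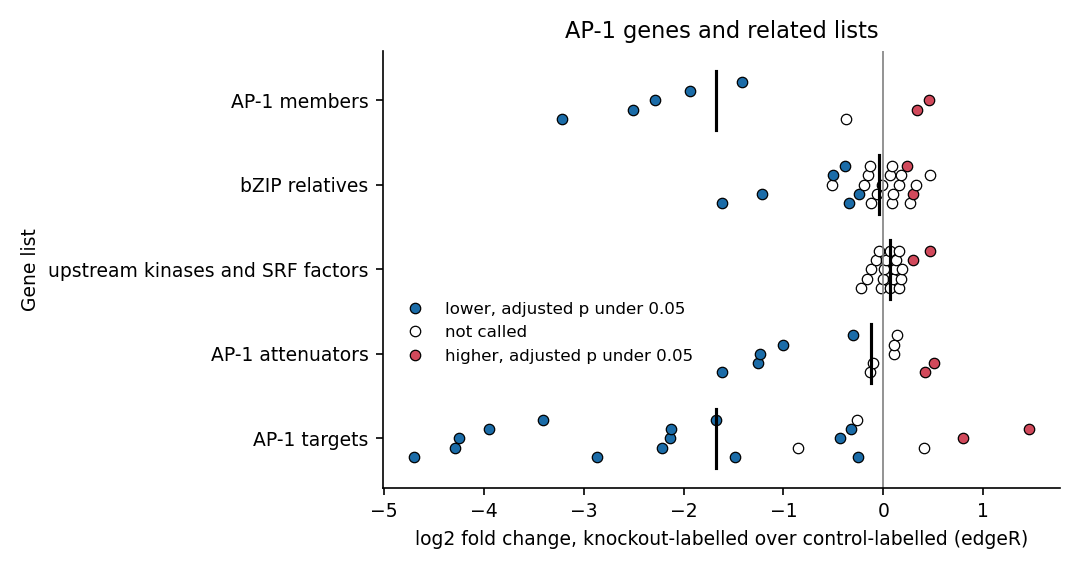
Log2 fold change of every tested gene in the AP-1 members and the related lists, 1 point a gene, with a bar at each list's median. The medians are -1.68 for the AP-1 members, -1.68 for AP-1 targets, -0.12 for attenuators, -0.04 for bZIP relatives and 0.07 for upstream kinases and SRF factors.

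The m6A peaks shown at the start cover Fos, Fosb, Fosl2, Jun, Junb, Jund and Atf3, that is 7 of 8 members, among them genes that fell, both that rose and the one that did not pass. Of the 14118 tested genes found in the mm9 annotation 42.0% held a summit, and of the 9419 with a control TPM at least that of Fosb 48.1% did. Fosb, Jun and Junb held 2 summits each, and 18.6% of the 9419 genes held at least 2. In control TPM, Jund, Fosl2, Atf3, Jun and Junb lay above 87.5% to 97.2% of the genes tested. The shares of the 9419 genes are therefore not matched to the level of these members. Because the members are 8 genes and the peaks come from wild type cells only, no test of a difference in methylation between genotypes could be made.

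By position, 5 of the 10 summits lay in a 3′UTR, 3 in coding sequence and 2 in a 5′UTR. Of the 9397 summits in genes, 25.4%, 60.0% and 5.53% did. Measured along the transcript from the first base of the stop codon, the summits of Fosb (4 nt after), Jund (6 nt after), Junb (10 nt before), Fosl2 (39 nt after) and Jun (127 nt after) lay within 200 nt, which makes 5 of 10 against 30.4% of 8260 summits on coding transcripts. The summit of Atf3 lay 730 nt after the stop codon in its last exon, that of Fos 360 nt before it in exon 4 of 4, and the other summit of Junb 681 nt before it. The remaining summits of Fosb and Jun were in the 5′UTR, 253 nt and 285 nt before the start codon.

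**Figure D5:**
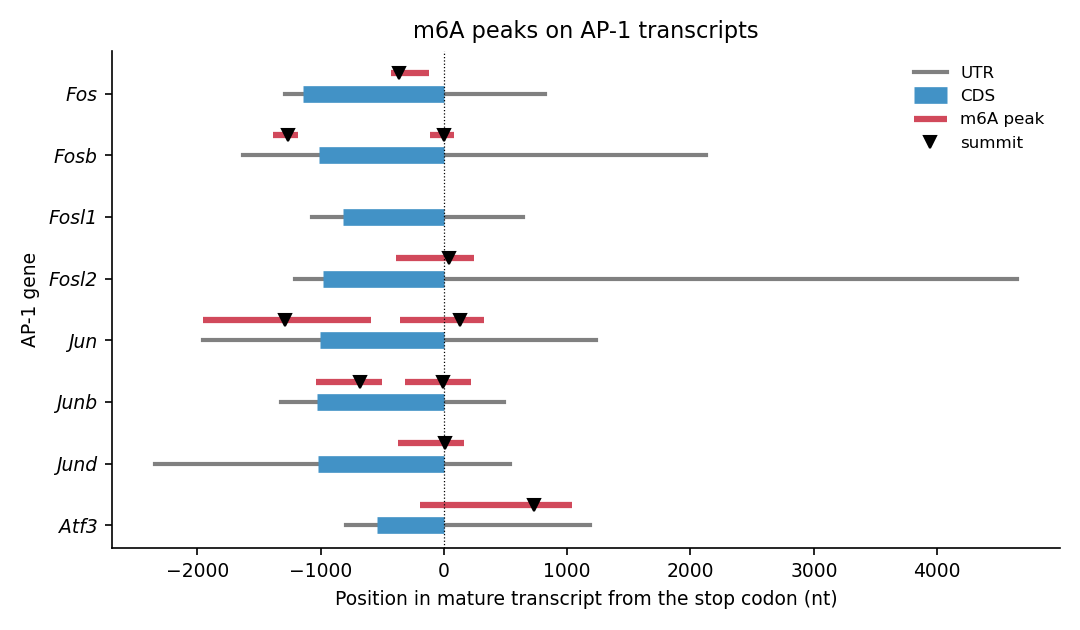
The m6A peaks of the mm9 list on the transcripts of the 8 AP-1 members, drawn along the spliced transcript in nt from the first base of the stop codon, with coding sequence and UTRs marked and a symbol at each summit. Of the 10 summits, 5 lie within 200 nt of the stop codon, and Fosl1 has none.

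Coverage at the summits was high for most members and enrichment was modest. The pileup, the number of fragments stacked at the summit, was 190 and 158 for Jun, 188 for Jund, 182 for Atf3, 175 and 157 for Junb and 153 for Fosl2, against a median of 60 over the list. It was 61 for Fos and 10 and 16 for Fosb, the member of lowest RNA level. Enrichment over input ran from 2.31-fold for Fos to 7.09-fold for the 5′UTR peak of Fosb, and 8 of 10 peaks were below the list median of 4.03-fold. Fosb thus had the fewest fragments and the highest enrichments, 7.09-fold and 4.53-fold. The strongest peak by significance was that of Atf3 at chr1:192994323-192995701 (−log10 q 42.9, 3.66-fold), and the weakest was the 3′UTR peak of Fosb (−log10 q 5.26). On the strand of the gene, a GGAC lay within the 101 bases centred on the summit in 8 of 10 peaks, and in 60.2% (Wilson 95% interval 59.2% to 61.2%) of all summits in genes.

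The nearest peak to Fosl1 lay 786 bp past its annotated end, in Ccdc85b, which overlaps Fosl1 on the opposite strand in the mm9 annotation (125 fragments, 5.11-fold, −log10 q 43.3). A peak 540 bp before the annotated start of Fosl2, at chr5:32438157-32438380 in mm9 (93 fragments, 3.9-fold), lay in no annotated gene. Gm11175 overlaps Jund and BC042782 overlaps Jun in the same way, and the peak list does not give a strand.

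Promoter sequences of RefSeq on GRCm38.p6, from 250 bases before to 50 after the annotated start, were at hand for 7 of the 8 members, all but Fosl1. The start is that of RefSeq, and for Atf3 it lies well inside the gene span given above for the expression table, so another start of that gene was not covered. The windows are shown as a description, with the match in capitals on the strand of the gene. TGACG, the core of the cAMP response element, was searched on both strands and was present in Fos, Fosb, Junb and Atf3, 4 of 7 against 20.8% of all 32851 windows.
Fos, 129 bases before the start (chr12:85473749-85473778, + strand): ggggcgtagagtTGACGacagagcgcccgc
Fos, 66 bases before (chr12:85473812-85473841, + strand): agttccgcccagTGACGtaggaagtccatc
Fosb, 60 bases before (chr7:19310087-19310116, - strand): ggagttgcgggTGACGCAAgcgcgggggcg
Junb, 106 bases before (chr8:84978837-84978866, - strand): gcttcctgacagTGACGcgagccgcctcct
Atf3, 10 bases before (chr1:191183325-191183354, - strand): tattaatagcaTTACGTCAgcctgggattg
Jun, 45 bases before (chr4:95052249-95052278, - strand): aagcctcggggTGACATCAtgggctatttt
The longer match in Fosb, TGACGCAA or its complement TTGCGTCA, was held by 0.490% of all windows, and the one in Atf3, TTACGTCA or TGACGTAA, by 0.499%. Both overlap their TGACG. TGACATCA or TGATGTCA, held by Jun, was in 3.62%. TATAAA, searched on the strand of the gene only, was in Fos and Junb and in 8.32% of all windows. The consensus AP-1 site, TGAGTCA or TGACTCA (5.20% of all windows), was in none of the 7 windows. Nor was the full element TGACGTCA (1.79%) or the CArG box bound by SRF (1.63%). This says only that these letters are not there, and bases more than 250 before the start were not searched. Of the promoters with TGACG, those of Fos, Fosb and Junb belong to genes that fell and that of Atf3 to the one that did not pass. Fosl2, which also fell, had no TGACG, nor did Jun and Jund, which rose. The part of these promoter sequences in the changes of the members was not tested.

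The genes whose pattern over the 4 libraries was closest to each member, by Euclidean distance of centred log2 CPM, were as follows. Slc1a3 (0.0316) and Fibin (0.0647) were closest to Fos, Flrt3 (0.0851) and 1500015O10Rik (0.104) to Fosb, Hoxa11 (0.0628) and Tob1 (0.109) to Fosl1, and Chd5 (0.0614) and Usp2 (0.0709) to Fosl2. Nfil3 (0.088) and Timp1 (0.0929), which is also on the list of AP-1 targets, were closest to Junb, Ubtd1 (0.0249) and Gm17638 (0.0292) to Jun, Ppp1r3e (0.014) and Fem1c (0.0179) to Jund, and Ribc1 (0.0197) and Gdf7 (0.0294) to Atf3. Other members were left out of the comparison. A pseudocount of 0.5 CPM was added before taking logs, which shrinks the differences of genes with few counts. Ribc1 (0.371 to 0.828 CPM) and Gdf7 (0.289 to 0.71 CPM) had fitted log2 fold changes of -0.79 and -0.87, against -0.37 for Atf3. Neither passed edgeR's test (adjusted p = 0.245 and 0.231). Chd5 (0.743 to 3.22 CPM) had -1.89, against -1.42 for Fosl2.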

How the data were processed

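The members and gene lists were chosen with earlier results of these data known. RNA-seq reads had been aligned by the authors with HISAT2 2.0.4, and the deposited table holds an estimated count (some with fractions, tool and strand setting not given in the sources used here) and a deposited value per gene and library whose columns sum to 1000000, used as TPM. Counts were rounded, and 89 entries without a gene name (0.110% to 0.125% of counts) were left out. Genes kept by filterByExpr (15327) were tested with edgeR 4.0.16 (TMM, quasi-likelihood F test, two-sided, R 4.3.3) and adjusted by Benjamini-Hochberg over all of them. No covariate was used. The procedure was tested on simulated data. For m6A, the submitters' processing notes name TopHat, MACS2 and mm9, and the list deposited by the authors gives for each peak the pileup signal at the summit, the fold enrichment ratio over input, and the −log10 q. It is a single list, and how the libraries were combined is not given in the sources used here. A peak belonged to a gene if its summit lay within it (GENCODE annotation of mm9), and transcript distances used the transcript with the longest coding sequence. Genes were named from a list as the 2 of highest mean CPM and, for bZIP relatives, upstream genes, attenuators and targets, the 3 called with the largest change; 1 gene that this rule names is not reported here. The authors' positions for RNA-seq are GRCm38. Alternatives were DESeq2 1.42.0 and its size factors within edgeR, a replicate block, every gene with a count, limma 3.58.1 on TPM (pseudocount 0.1), a plain linear model for each gene on TPM (pseudocount 1, log2 scale), both knockouts summed, each library left out, and for peaks a stricter q, any overlap and merging.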

Additional observations from a re-analysis of the deposited data

How the results depend on the processing

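The direction of all 8 members held under all 11 alternatives, and of 88 comparisons 73 kept their side of the threshold. The ordinary linear model on log2(TPM + 1), which shares no information between genes, called 1 member (Fosb), giving Fos -1.66, Fosl1 -2.19, Fosl2 -1.31, Junb -2.17, Jun 0.55 and Jund 0.43, at adjusted p from 0.0618 to 0.102. It called 101 of all genes (4082 at an unadjusted p under 0.05), 1 bZIP relative, 1 AP-1 target, 0 upstream genes (4 unadjusted) and 0 attenuators (5 unadjusted, 2 higher and 3 lower). With the knockout libraries summed, Jund was 0.35 (adjusted p = 0.122), and calls were 2012 of all genes, 3 bZIP relatives, 0 upstream genes (2 unadjusted) and 3 attenuators. limma on TPM called 2934 genes, 1643 higher and 1291 lower (56.0% higher, against 44.9% of 4677 by edgeR), and 5 upstream genes. Atf3 was -0.37 without the count filter (adjusted p = 3.5e-05) and -0.37 with DESeq2 (0.0423).

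Leaving out 1 library gave 1867 to 8750 genes called, 5 to 8 members, 13 to 19 targets, 2 to 21 bZIP relatives, 0 to 10 upstream genes and 3 to 10 attenuators. Without control replicate 1 or 2 there were 8750 and 7934 calls, and without knockout replicate 1 or 2 there were 1904 and 1867. Log2 fold changes ranged from -0.59 to -0.12 for Atf3, 0.41 to 0.51 for Jun and 0.32 to 0.37 for Jund.

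Same-numbered libraries did not deviate together (correlation 0.026 over 15327 genes), so replicates share only a number. The replicate block called 4881 genes and 8 members, adding Atf3 (-0.35, adjusted p = 0.0321), and changed no other member's call. By CPM in place of TPM, the log2 ratio was -1.53 for the Fos family and -0.41 for the Jun family (-1.61 and -0.64 by TPM). A stricter q left 7 member peaks on 5 members. The calls on Jun, Jund and Atf3 were those that changed most often with the setting.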
